A study of Mus musculus with 6 samples.

Results

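The genes described here are 9 members of the WNT pathway, listed by symbol: Dact1, Axin2, Lef1, Tcf7, Tcf7l1, Sp5, Nkd1, Ccnd1 and Ctnnb1. Features of the array whose annotation gave exactly one of these symbols were taken, which found 8 of the 9 genes with 1 feature each, among 19937 genes named on the array. The level of Tcf7 was not analysed here, and only its promoter windows are counted below. Dact1 was chosen by its differences from control, since it had been called higher under both treatments in an earlier reading of these data. Those differences are therefore given as a description and without a test, and the other members were listed around it by name.

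Transcripts were measured on 6 single-colour arrays of mouse embryonic stem cells of strain C57Bl/6. All 6 came from cells carrying GRgp-Y118F, a stably expressed chimeric receptor in which the outer part of the receptor for granulocyte colony-stimulating factor (GCSF) is joined to the inner part of gp130, the receptor subunit shared by cytokines such as leukaemia inhibitory factor (LIF). Y118F in the name is the notation of an amino acid substitution, whose effect on signalling was not tested here. The question behind the series was which genes are controlled by the transcription factor STAT3. The groups were 2 arrays labelled LIF/PD (LIF with 1 uM PD0325901, an inhibitor of the ERK-activating kinase MEK), 2 labelled GCSF and 2 of untreated control cells. Treated cells were serum-starved for 6 h and then stimulated for 1 h. The labels do not say whether the controls were also starved, or whether the line was a single clone.

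Before the results, 1 point on the labels is needed. Dusp6 and Spry4 are transcripts that ERK signalling maintains. Dusp6 had levels of 10.51 and 10.54 log2 intensity on the LIF/PD arrays, 8.93 and 8.94 on the GCSF arrays and 10.47 and 10.52 on the control arrays. Spry4 had 10.12 and 9.98 on the LIF/PD arrays, 8.12 and 8.22 on the GCSF arrays and 9.97 and 10.04 on the control arrays. The ERK readouts were therefore low in the group whose label names no MEK inhibitor and at control level in LIF/PD. This goes against the labels, and each direction below holds for the arrays that carry a label. Socs3, the STAT3 feedback gene, was higher than control by 2.62 ± 0.07 log2 in LIF/PD and by 3.13 ± 0.07 in GCSF (difference ± SE from limma, n = 2 arrays per group, as throughout). That is its brighter feature, and a dimmer Socs3 feature, with a mean of 7.22, was higher by 0.39 and 0.51. All 10 markers of embryonic stem cells had mean levels of 9.21 to 13.69 log2 intensity and lay above the filter on dim features. Of the markers of other cell types, some also lay above that filter, which is a cut on brightness and not a detection call. These were 7 of 8 for feeder fibroblasts, 5 of 7 for primitive endoderm and 5 of 6 for primitive streak and mesoderm. For neuroectoderm they were 4 of 6 and for trophoblast 5 of 6. The 7 feeder fibroblast markers had means of 9.08 (Col3a1) to 10.81 (Col1a1), and Lum, below the filter, had 5.60. The highest mean was 9.83 among primitive endoderm markers, 8.22 among primitive streak and mesoderm markers, 8.34 among neuroectoderm markers and 9.63 among trophoblast markers. Summed levels of the primitive streak and mesoderm markers, which include targets of WNT signalling, ran from 43.37 to 43.53 in LIF/PD, from 43.16 to 43.69 in GCSF and from 43.68 to 43.70 in control arrays. Those of the trophoblast markers were 46.66 to 46.87 in LIF/PD, 46.46 to 46.97 in GCSF and 45.95 to 46.37 in control arrays. Tfap2c, one of these markers, had 9.67 and 9.67 in LIF/PD, 10.00 and 9.95 in GCSF and 9.32 and 9.16 in control arrays. The sums of the other 5 trophoblast markers overlapped, at 36.99 to 37.19 in LIF/PD, 36.46 to 37.02 in GCSF and 36.63 to 37.21 in control arrays. Sums of the embryonic stem cell markers were also above control on the treated arrays, at 117.63 to 117.86 in LIF/PD and 117.62 to 117.93 in GCSF, against 117.28 to 117.61 in control arrays. These markers did not move together. Sox2, Nanog, Tdgf1 and Fgf4 lay above both controls on every treated array. Pou5f1 and Dppa4 lay below them, and the others did neither. Tdgf1 had 12.68 and 12.68 in LIF/PD, 12.86 and 12.85 in GCSF and 12.56 and 12.54 in control arrays. Dppa4 had 9.81 and 9.74, 9.80 and 9.50, and 9.99 and 9.86 in the same order. Summed levels of the neuroectoderm markers were 44.66 to 44.68 in LIF/PD, 44.25 to 44.55 in GCSF and 44.16 to 44.29 in control arrays. By these sums LIF/PD lay above control and GCSF overlapped it. Pax6, one of these markers, had 8.24 and 8.16 in LIF/PD, 8.27 and 8.41 in GCSF and 7.77 and 7.83 in control arrays. Otx2, another, had 7.75 and 7.62, 7.38 and 7.42, and 7.52 and 7.59 in the same order. The GCSF sum therefore mixes markers that moved in opposite directions. Sums of the feeder fibroblast and primitive endoderm markers overlapped between the treated and the control arrays. The part of these markers in the results below was not tested.

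WNT ligands bind Frizzled receptors together with LRP co-receptors and act through dishevelled proteins to stop the destruction complex, built on axin and APC, from marking beta-catenin for degradation. Beta-catenin then enters the nucleus, binds the TCF/LEF factors and switches on target genes, several of which encode inhibitors that damp the pathway again. In mouse embryonic stem cells the pathway supports self-renewal, in large part by relieving the repression that Tcf7l1 exerts on pluripotency genes.

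Dact1 was the member with the largest difference from control in both comparisons, and it was higher under both treatments by nearly the same amount. It encodes a dishevelled-binding scaffold protein that modulates WNT signalling. Its level was 8.61 and 8.57 log2 intensity on the LIF/PD arrays, 8.62 and 8.62 on the GCSF arrays and 8.10 and 8.04 on the control arrays. Every treated array lay above both controls, and the gap between arrays of a group was at most 0.06. The difference from control was 0.52 ± 0.05 log2, or 1.43-fold, in LIF/PD and 0.54 ± 0.05, or 1.46-fold, in GCSF. By size of difference, whatever its sign, Dact1 stood at rank 19 of 16912 tested features in LIF/PD and at rank 85 in GCSF. Dact1 was chosen by these differences, so nothing is read from its rank or from its place among the members. Both comparisons use the same 2 control arrays, so they are not independent of each other. Both treated groups were also starved, which the labels do not say of the controls. Starvation and stimulation therefore cannot be told apart in a difference that both groups share, for Dact1 or for the genes below. In bulk RNA, a change in the share of cells that express a gene and a change in the amount per cell cannot be told apart.

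The Dact1 levels of both GCSF arrays lay just above those of the LIF/PD arrays, within the spread between replicates. The difference of LIF/PD from GCSF was -0.02 ± 0.05 log2, with a 95% interval of -0.15 to 0.10 (adjusted p = 0.906 with limma). By the same contrast Dusp6 differed by 1.59 ± 0.04 and Spry4 by 1.88 ± 0.06. In order of level, the treated groups came first without a difference beyond their spread, and the controls came last.

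**Figure D1:**
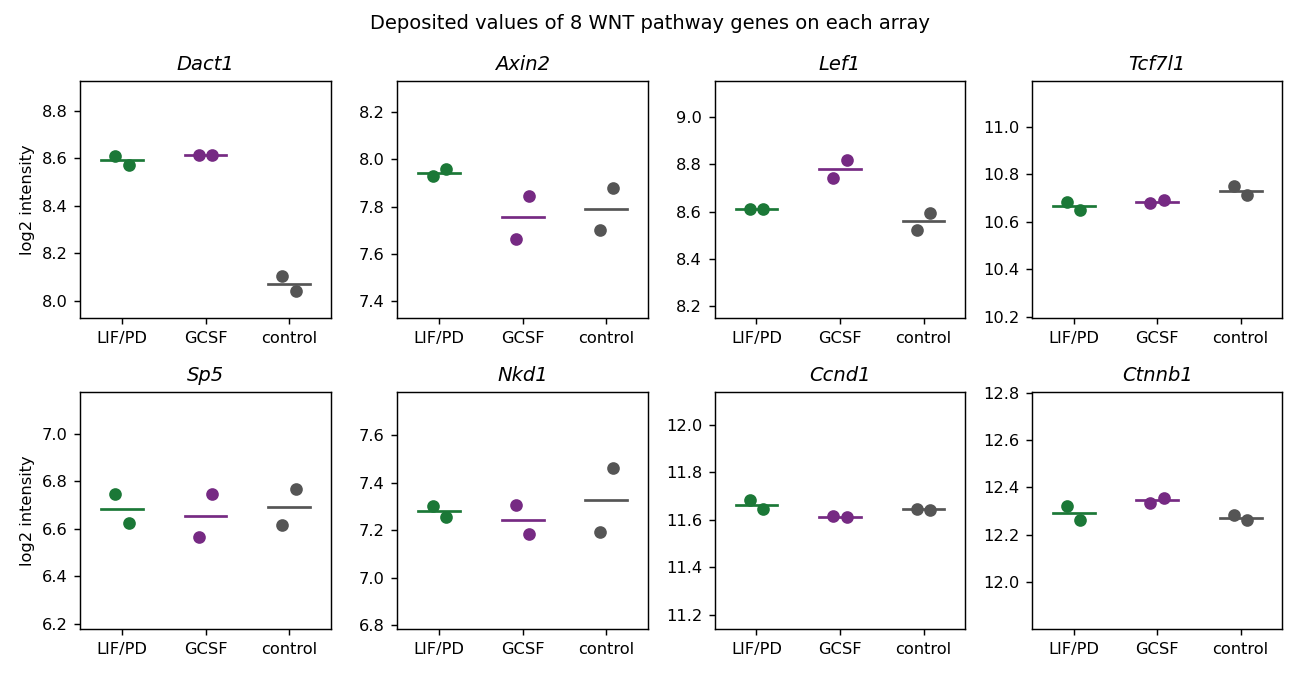
Deposited log2 intensity of each measured gene on each array (dots; x axis, group) with the group mean (line); every panel spans 1 log2 unit. Dact1 lay at 8.57 to 8.62 on the treated arrays and at 8.04 and 8.10 on the controls, while the other genes moved by less.

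The stretch before the Dact1 transcript start is shown because it is the promoter of the member that differed, from the RefSeq table of build GRCm38.p6, chr12:71309634-71309883, plus strand. Capitals mark CG pairs.
Dact1: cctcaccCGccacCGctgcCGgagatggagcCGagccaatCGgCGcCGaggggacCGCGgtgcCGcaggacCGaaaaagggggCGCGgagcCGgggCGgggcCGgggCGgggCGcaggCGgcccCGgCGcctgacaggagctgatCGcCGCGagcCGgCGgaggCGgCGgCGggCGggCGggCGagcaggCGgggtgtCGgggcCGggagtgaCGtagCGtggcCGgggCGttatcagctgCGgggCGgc
These 250 bases hold 41 CG pairs and are 80.4% G or C, against medians of 6 pairs and 52.4% over the 32851 promoters of the table. Fewer CG pairs were found in 98.9% of those promoters. The other members in the table ranged from 5 to 43 pairs and from 44.8% to 76.0% over 12 windows.

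A pair of short motifs was searched on both strands from 250 bases before to 50 bases after each start: CTTTGAT, the core that TCF/LEF factors recognise, and TTCNNNGAA, the STAT element, which reads alike on both strands. Neither letter string occurs in the Dact1 window. Of the 13 windows of the 8 members in the RefSeq table, which are all but Ccnd1 and include Tcf7, 1 held the TCF/LEF motif and 0 held the STAT motif, while 3.73% and 8.3% of all promoters hold them. The match lay 104 to 98 bases before the start of Sp5, on the plus strand of chromosome 2. It is shown next to the STAT match of Socs3, on the minus strand of chromosome 11 and 154 to 146 bases before the start, since Socs3 had the largest difference of all features in both comparisons with control. Capitals mark the motif.
Sp5, chr2:70474799-70474845: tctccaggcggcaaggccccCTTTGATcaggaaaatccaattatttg
Socs3, chr11:117969492-117969540: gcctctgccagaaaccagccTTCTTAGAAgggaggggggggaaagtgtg
A match is a string of letters and not a shown binding site, and more distant elements were not searched.

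**Figure D2:**
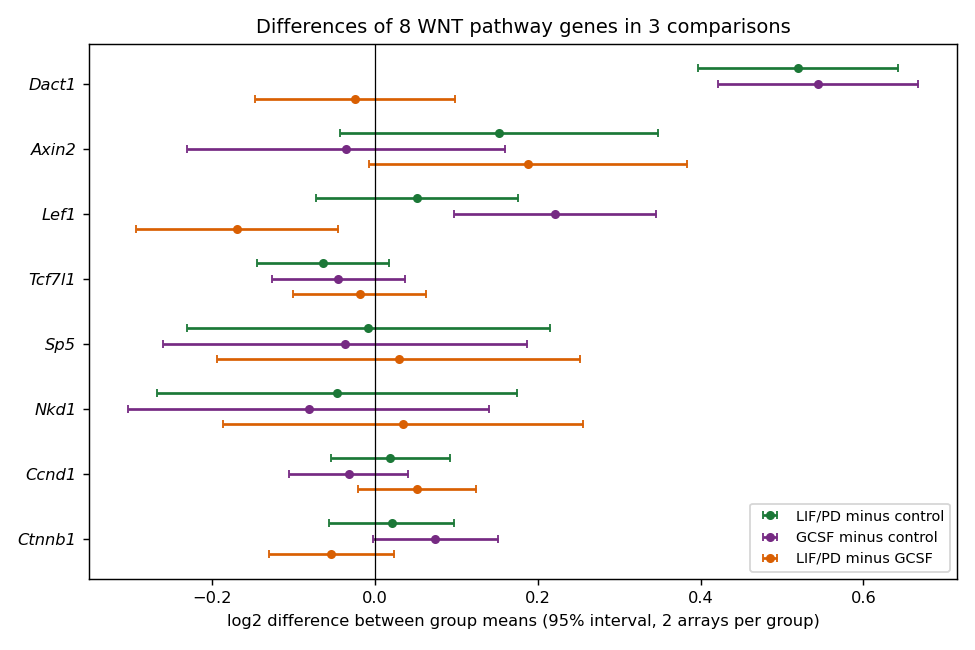
Log2 difference between group means for each gene (dots) with its 95% interval (bars), for LIF/PD minus control, GCSF minus control and LIF/PD minus GCSF. Dact1 lies at 0.52 and 0.54 against control, and the other genes lie between -0.08 and 0.22 there.

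Among the 7 members bright enough to be tested, 1 was called in LIF/PD against control, where 0.065% of all tested features were called (adjusted p under 0.05, limma), and 1 in GCSF against control, where 1.17% were. Both calls are those of Dact1, which was chosen for them, and nothing is read from these counts. In LIF/PD the call rested on all 6 arrays. With any 1 left out, the Dact1 difference stayed between 0.49 and 0.55, and fewer of all features were called. In LIF/PD against GCSF 0 of 7 were called, where 0.846% of all features were.

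The other 6 tested members gave no call in any comparison. With limma's p unadjusted and a threshold of 0.05, 0 of 6 passed in LIF/PD against control, beside 6.59% of all features. In GCSF against control 1 passed, beside 12.1%, and in LIF/PD against GCSF 1 passed, beside 11.8%, and both times the gene was Lef1. Their differences from control had a median of 0.02 in LIF/PD and -0.03 in GCSF, beside 0.01 and 0.01 over all features. Against control, the 95% interval that reached farthest from 0 among these 6 ended at a 1.27-fold difference in LIF/PD and at a 1.27-fold difference in GCSF. The groups did not overlap in 3 of these 6 members in LIF/PD against control, 4 in GCSF against control and 4 in LIF/PD against GCSF. Over all features the same was true of 38.4%, 41.8% and 41.5%, which shows how often 2 arrays separate from 2 others on this array set.

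Lef1 and Tcf7l1 encode DNA-binding partners of beta-catenin. Lef1, often an activator and itself a WNT target, had levels of 8.61 and 8.61 log2 intensity on the LIF/PD arrays, 8.74 and 8.82 on the GCSF arrays and 8.52 and 8.60 on the control arrays. The GCSF arrays were the highest and did not overlap with the others. The difference of GCSF from control was 0.22 ± 0.05 log2, which did not pass (adjusted p = 0.136 with limma, and 0.113 to 0.544 over the alternatives). LIF/PD differed from control by 0.05 ± 0.05 (adjusted p = 0.91) and from GCSF by -0.17 ± 0.05 (adjusted p = 0.257, limma).

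Tcf7l1, the repressor among these factors in embryonic stem cells, had levels of 10.68 and 10.65 log2 intensity on the LIF/PD arrays, 10.68 and 10.69 on the GCSF arrays and 10.75 and 10.71 on the controls. Both control arrays were above all treated arrays, but by little. Its differences from control were -0.06 ± 0.04 in LIF/PD (adjusted p = 0.805) and -0.05 ± 0.04 in GCSF (adjusted p = 0.67, limma).

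Ctnnb1, the gene of beta-catenin itself, was bright on every array. Its levels were 12.32 and 12.26 log2 intensity in LIF/PD, 12.34 and 12.36 in GCSF and 12.28 and 12.26 in control arrays. The GCSF arrays lay above the others by a small margin, with a difference from control of 0.07 ± 0.03 (adjusted p = 0.425). In LIF/PD the difference was 0.02 ± 0.03 (adjusted p = 0.95, limma). Transcript levels do not report on the stability of the protein, which is where the pathway acts on beta-catenin.

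Axin2, the axin whose gene is a classical WNT target and which feeds back on the pathway as part of the destruction complex, had levels of 7.93 and 7.96 log2 intensity in LIF/PD, 7.66 and 7.85 in GCSF and 7.70 and 7.88 in control arrays. The LIF/PD arrays were highest, although the higher control array came within 0.05 of the lower of them. The arrays of the other groups lay 0.18 apart within each group, replicate 2 above replicate 1 in both. Against control, LIF/PD differed by 0.15 ± 0.09 (adjusted p = 0.805) and GCSF by -0.04 ± 0.09 (adjusted p = 0.913, limma). Between the treatments, LIF/PD minus GCSF was 0.19 ± 0.09 (adjusted p = 0.439).

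Nkd1, which encodes a dishevelled-binding inhibitor induced by WNT signalling, had control arrays that lay apart. Levels of 7.30 and 7.26 log2 intensity in LIF/PD and 7.30 and 7.19 in GCSF stood against 7.19 and 7.46 in control arrays. The controls alone span 0.27 and enclose 3 of the 4 treated arrays, with GCSF replicate 2 just below them. Differences from control were -0.05 ± 0.10 in LIF/PD (adjusted p = 0.959) and -0.08 ± 0.10 in GCSF (adjusted p = 0.795, limma). Without control replicate 2 they were 0.09 and 0.05, so the sign rests on that array.

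Sp5, a transcription factor gene directly induced by beta-catenin, lay just under the filter, with a mean of 6.68 against a limit of 6.70 log2 intensity, and was not tested. Its levels were 6.75 and 6.62 in LIF/PD, 6.57 and 6.75 in GCSF and 6.62 and 6.77 in control arrays, so the groups overlapped. From a fit without the filter, the difference from control was -0.01 ± 0.10 in LIF/PD and -0.04 ± 0.10 in GCSF.

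Ccnd1, the cyclin D1 gene, which drives entry into the cell cycle and is a WNT target in other tissues, had close levels on all arrays. Levels were 11.68 and 11.65 log2 intensity in LIF/PD, 11.61 and 11.61 in GCSF and 11.65 and 11.64 in control arrays. GCSF arrays were the lowest, with a difference from control of -0.03 ± 0.03 (adjusted p = 0.745), and LIF/PD differed from control by 0.02 ± 0.03 (adjusted p = 0.952, limma).

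Paralogs of the members were read the same way. Dact2 had a difference from control of 0.05 ± 0.06 in LIF/PD and -0.12 ± 0.06 in GCSF, and Dact3 of 0.01 ± 0.07 and -0.02 ± 0.07. Whether Dact1 differs from its paralogs in response was not tested. Axin1, the constitutive axin, differed from control by 0.04 ± 0.05 in LIF/PD and 0.07 ± 0.05 in GCSF, Tcf7l2 by 0.02 ± 0.04 and 0.05 ± 0.04, and Nkd2 by -0.05 ± 0.07 and 0.04 ± 0.07. The cyclin gene Ccnd2 differed from control by 0.01 ± 0.03 in LIF/PD and 0.01 ± 0.03 in GCSF, and Ccnd3 by 0.01 ± 0.05 and 0.00 ± 0.05. Jup, the gene of plakoglobin, a relative of beta-catenin, was at -0.05 ± 0.03 in LIF/PD and -0.12 ± 0.03 in GCSF (adjusted p = 0.836 and 0.209, limma). None of these paralogs passed, and Sp8, the relative of Sp5, lay below the filter.

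A wider list of 147 other pathway genes, of which 124 were tested with 1 feature each, was read beside the members. In LIF/PD against control 0 of 124 were called with limma, beside 0.0772% of all genes, and 6 (4.84%) passed 0.05 unadjusted, beside 5.9%. In GCSF against control 1 rose and 3 fell, together 3.23% beside 1.17% of all genes, and 20 (16.1%) passed unadjusted, beside 11.6%. In LIF/PD against GCSF 3 were higher and 0 lower, 2.42% beside 0.765%, and 19 (15.3%) passed unadjusted, beside 11.2%. The median difference of the list was 0.01 in LIF/PD and 0.01 in GCSF against control, beside 0.02 and 0.01 over 12949 genes.

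**Figure D3:**
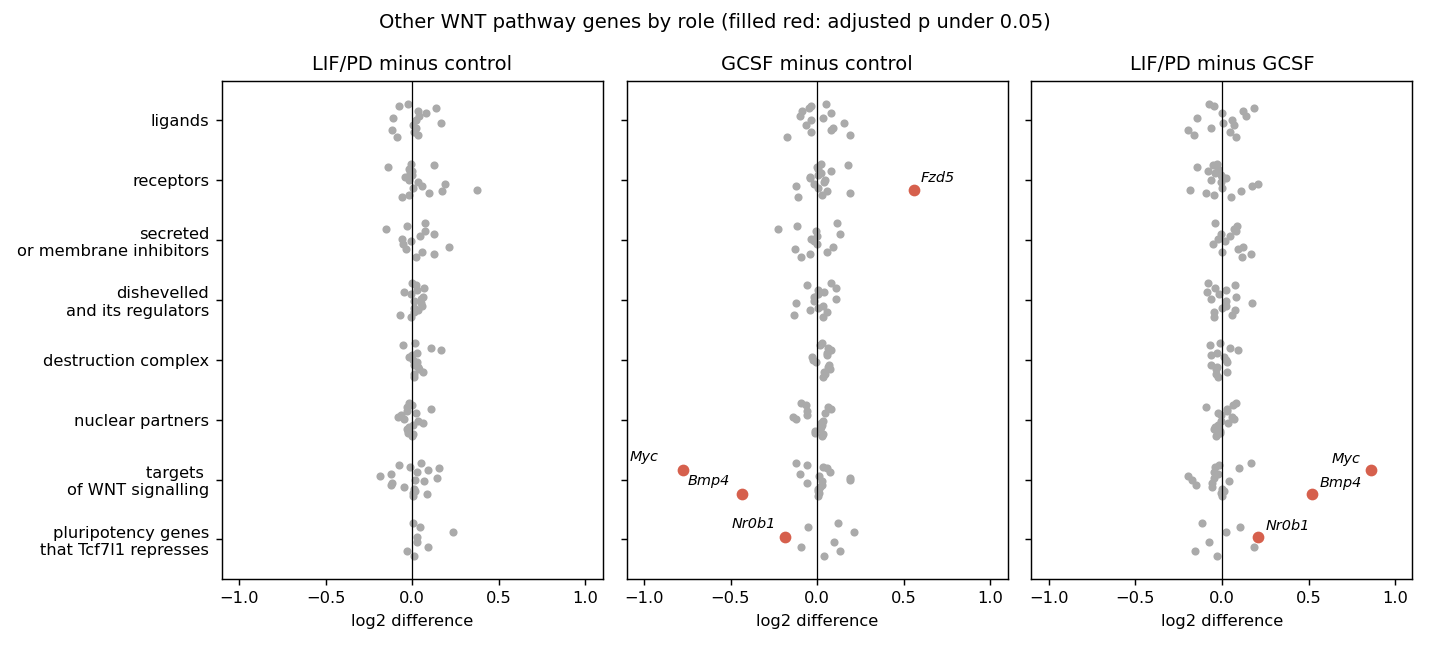
Log2 difference of each of 124 tested pathway genes (dots) by role in the pathway, in 3 panels for the 3 comparisons; red dots passed an adjusted p under 0.05. Most genes lie near 0, and Fzd5, Myc, Bmp4 and Nr0b1 passed in GCSF against control.

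Of 19 tested receptors and co-receptors, 1 rose in GCSF against control and 0 fell (5.26%, beside 1.17% of all genes). That gene was Fzd5, a Frizzled receptor for WNT ligands. Its levels were 9.01 and 9.06 log2 intensity in LIF/PD, 9.28 and 9.16 in GCSF and 8.70 and 8.63 in control arrays. All treated arrays lay above both controls, with the GCSF arrays highest. Fzd5 rose by 0.56 ± 0.06 log2 in GCSF (adjusted p = 0.00225 with limma) and was called with any 1 array left out, in fits that assume that a group's lone array varies like the other groups. In LIF/PD it differed from control by 0.37 ± 0.06 and did not pass (adjusted p = 0.138), and the difference of LIF/PD from GCSF, -0.18 ± 0.06, did not pass either (adjusted p = 0.247, limma).

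Among 19 tested targets of WNT signalling, 2 fell in GCSF against control and 0 rose (10.5%, beside 1.17% of all genes). Myc, the growth-promoting transcription factor gene, had levels of 10.68 and 10.69 log2 intensity in LIF/PD, 9.80 and 9.84 in GCSF and 10.54 and 10.64 in control arrays. Only the GCSF arrays were low. Myc fell by 0.77 ± 0.04 in GCSF against control (adjusted p = 9.43e-05) and differed by 0.09 ± 0.04 in LIF/PD (adjusted p = 0.778, limma). Bmp4, the gene of a bone morphogenetic protein ligand, followed the same order, with levels of 10.49 and 10.52 log2 intensity in LIF/PD, 9.93 and 10.03 in GCSF and 10.41 and 10.42 in control arrays. It fell by 0.44 ± 0.04 in GCSF (adjusted p = 0.00195) and differed by 0.09 ± 0.04 in LIF/PD (adjusted p = 0.787, limma). Both were also called with any 1 array left out, under the same assumption. Between the treatments, LIF/PD was higher than GCSF by 0.86 ± 0.04 for Myc (adjusted p = 7.32e-05) and by 0.52 ± 0.04 for Bmp4 (adjusted p = 0.00158, limma). These targets were low on the same arrays on which Dusp6 and Spry4 were low. Myc and Bmp4 are also regulated by pathways other than WNT, whose part in these values was not tested.

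Of 8 pluripotency genes that Tcf7l1 represses, 1 fell in GCSF against control and 0 rose with adjustment (12.5%, beside 1.17% of all genes). It was Nr0b1, a nuclear receptor gene. Its levels were 12.41 and 12.42 log2 intensity in LIF/PD, 12.21 and 12.20 in GCSF and 12.39 and 12.39 in control arrays. The GCSF arrays were low and the replicates of each group lay close together. Nr0b1 fell by 0.18 ± 0.03 against control (adjusted p = 0.0267) and LIF/PD was higher than GCSF by 0.21 ± 0.03 (adjusted p = 0.0185, limma). Both calls ended whichever of the 6 arrays was left out. Without adjustment, 1 of these 8 genes passed limma's threshold in LIF/PD against control (12.5%, beside 5.9% of all genes), 5 in GCSF against control (62.5%, beside 11.6%) and 6 in LIF/PD against GCSF (75%, beside 11.2%). Differences of the 8 genes in GCSF against control ran from -0.18 to 0.21, so they went in both directions.

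**Figure D4:**
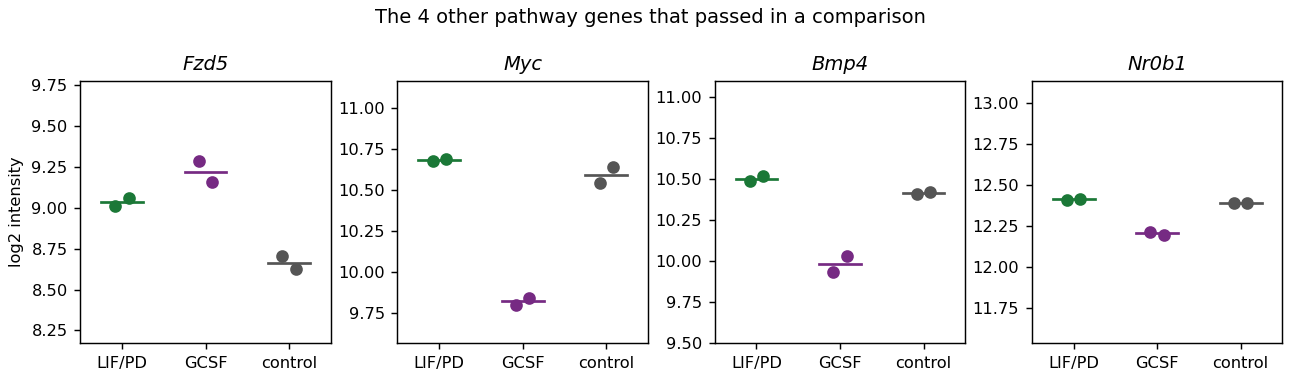
Deposited log2 intensity of Fzd5, Myc, Bmp4 and Nr0b1 on each array (dots; x axis, group) with the group mean (line); each panel spans 1.6 log2 units. Fzd5 is higher on all treated arrays than on the controls, and the other genes are low on the GCSF arrays.

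The remaining roles gave no call in any comparison. Of 15 tested ligands and ligand-secretion genes, 0, 2 and 4 passed limma's unadjusted threshold in LIF/PD against control, GCSF against control and LIF/PD against GCSF, where 5.9%, 11.6% and 11.2% of all genes did. The smallest p was that of Wls, the carrier that brings WNT proteins to the cell surface, at 0.19 ± 0.04 in GCSF against control (adjusted p = 0.0959). The secreted or membrane inhibitors gave 2, 3 and 1 of 14 at that threshold, with Dkk3, a member of the Dickkopf family, at 0.21 ± 0.06 in LIF/PD against control (adjusted p = 0.658). Dishevelled genes and their regulators gave 0, 1 and 1 of 16, and here the smallest p was that of Dact2 in LIF/PD minus GCSF (0.17 ± 0.06, adjusted p = 0.336, limma).

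Of 15 tested destruction complex genes, 0 passed limma's unadjusted threshold in any comparison. Beside this stand 5.9%, 11.6% and 11.2% of all genes, and with so few genes nothing is read from the count. The smallest p was that of Rnf146, a ubiquitin ligase gene that controls axin turnover, at 0.17 ± 0.09 in LIF/PD against control (adjusted p = 0.79, limma). Nuclear partners of beta-catenin gave 0, 2 and 1 of 18 at the unadjusted threshold, with Jup, described above, at the smallest p.

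The genes most like Dact1 over the 6 arrays were found by the distance between log2 levels, each centred on the gene's own mean, among 14029 other tested features with 1 symbol. The nearest was Junb, an immediate early transcription factor gene of the AP-1 family, at a distance of 0.11. Klf5, a pluripotency factor gene, followed at 0.12, then the T-box gene Tbx20 at 0.13, the phosphatase gene Dusp1 at 0.17 and Zfp36, whose protein promotes mRNA decay, at 0.19. Their differences from control are a description, since likeness to Dact1 on the same arrays chose them. In LIF/PD they were 0.58 for Junb, 0.43 for Klf5, 0.40 for Tbx20, 0.40 for Dusp1 and 0.43 for Zfp36. In GCSF they were 0.59 for Junb, 0.56 for Klf5, 0.52 for Tbx20, 0.58 for Dusp1 and 0.39 for Zfp36. With 6 arrays in 3 groups, likeness of this kind says little more than that both treated groups were higher than control by about the same amount.

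**Figure D5:**
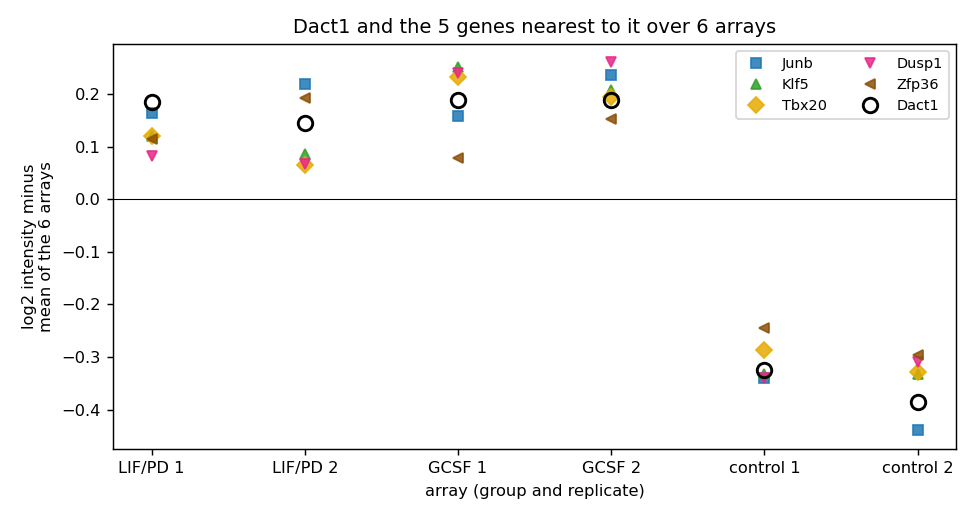
Log2 intensity minus the mean of the 6 arrays (y axis) on each array (x axis) for Dact1 (open circles) and the 5 genes nearest to it (filled symbols). All 6 genes lie above 0 on the treated arrays and below 0 on both controls.

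Of the 4 of these genes with a promoter window in the table, Junb, Tbx20, Dusp1 and Zfp36, 0 held the TCF/LEF motif and 1, Zfp36, held the STAT motif, 17 to 9 bases before its start on the minus strand of chromosome 7. It is shown, with the motif in capitals, as the single match among the genes nearest to Dact1.
Zfp36, chr7:28379229-28379265: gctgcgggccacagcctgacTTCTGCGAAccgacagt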

How the data were processed

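Total RNA of 6 samples was labelled with biotin and hybridised at a core facility, per the labels' protocols. The deposited table holds 34760 features, and its values were read as log2 intensity because they lie between 2.29 and 14.50. How the authors summarized and normalized them, and the log base, are not stated in the labels. The 6573 features below the first annotated identifier were left out as control features, and of the other 28187 the 16912 with a mean of at least 6.70, the 40th percentile, were tested. Gene symbols came from the platform annotation, updated by gene identifier.

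Group means over all 6 arrays were estimated with limma 3.58.1 in R 4.3.3, with variances trended on intensity and 3 residual degrees of freedom. Variance information borrowed from the other features brought the total behind each interval and p to 8.40 degrees of freedom. Tests were two-sided, with Benjamini-Hochberg adjustment across the tested features and a threshold of 0.05. The fit was tested on simulated data. Separate cultures are not stated, so the tests reflect the spread among these arrays alone, which may be technical. Arrays have no sequencing depth, and their number limits the precision.

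Members and lists were chosen with earlier results of these data known. The text names all members and their paralogs, 3 checks of the labels, in each role of the list the called genes (at most 4) or the one with the smallest p, and the 5 genes nearest to Dact1. Alternatives changed the replicate block, which arrays entered the fit, the filter, the normalization, the variance model, features per gene and each array left out. Sequences are from RefSeq, build GRCm38.p6.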

Additional observations from a re-analysis of the deposited data

How the results depend on the processing

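The count of members called in LIF/PD against control was 1, that of Dact1. It dropped to 0 with only the 2 groups compared in the fit and to 0 with no intensity trend for the variances. With any array left out, the Dact1 difference stayed between 0.49 and 0.55. Calls over all 16912 tested features fell as well, from 11 to 8 with only the 2 groups compared and to 1 with no intensity trend. A fit with fewer arrays also has less power, and the cause was not tested. In GCSF against control the count of members called was 1, and in LIF/PD against GCSF it was 0, under every alternative with 2 arrays per group. The 1 was Dact1 each time, which was chosen for its calls, so nothing is read from that count. Its difference in GCSF stayed between 0.51 and 0.57 with any array left out. The other pathway genes gave 0 calls in LIF/PD against control under all 14 alternatives, 3 or 4 in GCSF against control and 2 or 3 in LIF/PD against GCSF. The gene lost was Nr0b1 each time, while Fzd5, Myc and Bmp4 were kept. With the replicate number as a block, the counts were 1, 1 and 0 for the members and 0, 4 and 3 for the list, given for LIF/PD minus control, GCSF minus control and LIF/PD minus GCSF, so the block changed no call of these genes. Deviations of same-numbered arrays from their group means correlated at 0.01 (GCSF and control), 0.08 (LIF/PD and control) and 0.10 (LIF/PD and GCSF). With 2 arrays per group, such values cannot show whether same-numbered arrays shared a culture or a day. The labels give only the number. Among the other members, the sign of a difference from control changed with 1 array left out for Nkd1 (-0.18 to 0.09 in LIF/PD, -0.22 to 0.05 in GCSF), Axin2 (-0.13 to 0.06 in GCSF) and Ctnnb1 (-0.01 to 0.05 in LIF/PD), none of which was called under any setting. Quantile normalization and median centring moved the median of all features by less than 0.1 log2. Sp5 has values only where no filter was used.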
